A study of Mus musculus with 18 samples.

Results

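The cytosolic ribosomal proteins were followed here through 106 probe sets of 50 gene symbols, out of 45037 probe sets that were not array controls. Probe sets were taken by name, where the array annotation gave 1 symbol that begins with Rpl or Rps and a digit or is Rplp0, Rplp1, Rplp2 or Rpsa, leaving out the Rps6k kinases, pseudogenes and unnamed clones. The large subunit had 48 of them (26 genes) and the small subunit 58 (24 genes). The rule also takes in Rps19bp1, which encodes a protein that binds a ribosomal protein, and the paralogues Rpl3l, Rpl7l1, Rpl22l1, Rpl39l, Rps4l and Rps27l. Without these, 95 probe sets of 43 genes remained. A further 110 probe sets carried several symbols, at least 1 of them a ribosomal protein, and Rplp1, Rps27a and Rpl5 had no probe set with 1 symbol. Each probe set was read on 18 arrays, 9 of RNA pulled down with a flag-tagged protein that binds poly(A) tails (IP) and 9 of total RNA from whole brain (WB).

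All 18 samples, IP and WB alike, came from transgenic mice whose strain is labelled C57BL/6J X DBA/2J, with ages of 11 and 14 weeks given for the series and not for single samples. The mice carried a bacterial artificial chromosome in which the coding sequence of the orexin gene was replaced by a flag-tagged rat poly(A)-binding protein 1 and eGFP, joined by an internal ribosome entry site, so that the orexin gene's regulatory sequence drives the tag. Orexin is a neuropeptide of a small group of hypothalamic neurons that sustain wakefulness, and the comparison asks which messages differ in abundance between the pulled-down RNA and that of the brain as a whole. The brains were fixed with formaldehyde before the tagged protein was captured. Whether each sample stands for 1 animal is not given in the labels, and p-values therefore rest on a spread between samples that may be technical. Hcrt, the orexin gene, had a log2 difference of 0.21 between IP and WB (SE 0.28, adjusted p = 0.57 in limma).

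The cytosolic ribosome translates messenger RNA into protein. Its small subunit reads the message, and its large subunit joins the amino acids and carries a stalk that recruits the translation factors. Each ribosome needs its proteins in matched amounts, and in vertebrates their messages share a run of pyrimidines at the 5′ end, the terminal oligopyrimidine motif, through which the mTOR pathway and the protein Larp1 set their translation. In neurons, ribosomes work in the cell body and in dendrites, and ribosomal protein messages are among the most abundant of the brain.

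The shared start of these messages is shown first, because it is a sequence feature of the family that the choice by name did not use. RefSeq start sites (GRCm38.p6) were listed for 44 of the 50 genes. The sequences below run from 10 bases before the start to 20 bases from it, with capitals for the longest run of C and T that overlaps the 5 bases on either side of the start. They are those of the ribosomal proteins described by name below, paralogues and genes added later left out. No sequence is shown for Rpl8, Rps14 and Rps20, which are not among the 44 genes with a listed start. The first 6 have a run of at least 8 bases.
Rplp2, chr7:141447641-141447670, plus strand: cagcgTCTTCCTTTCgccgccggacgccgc
Rpl13a, chr7:45128726-45128755, minus strand: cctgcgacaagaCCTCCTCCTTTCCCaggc
Rps10, chr17:27635225-27635254, minus strand: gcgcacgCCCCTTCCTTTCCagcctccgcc
Rps24, chr14:24490668-24490697, plus strand: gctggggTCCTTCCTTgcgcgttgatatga
Rps9, chr7:3704031-3704060, plus strand: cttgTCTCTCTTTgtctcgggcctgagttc
Rps6, chr4:86857348-86857377, minus strand: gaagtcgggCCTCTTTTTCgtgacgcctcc
The next 8 have shorter runs at the listed start.
Rplp0, chr5:115559457-115559486, plus strand: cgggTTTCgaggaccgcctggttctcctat
Rpl11, chr4:136053374-136053403, minus strand: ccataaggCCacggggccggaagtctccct
Rpl37a, chr1:72711250-72711279, plus strand: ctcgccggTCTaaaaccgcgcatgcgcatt
Rps15, chr10:80292421-80292450, plus strand: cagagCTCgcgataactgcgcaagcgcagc
Rps25, chr9:44407704-44407733, plus strand: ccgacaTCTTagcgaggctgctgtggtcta
Rps28, chr17:33824543-33824572, minus strand: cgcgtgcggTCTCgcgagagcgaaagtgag
Rps4x, chrX:102189372-102189401, minus strand: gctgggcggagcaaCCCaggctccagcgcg
Rpsa, chr9:120127756-120127785, plus strand: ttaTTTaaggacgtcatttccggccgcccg
A run of at least 8 pyrimidines was present at 18 of 44 ribosomal protein genes (40.9%), 10 of 24 of the large subunit and 8 of 20 of the small subunit. It was present at 7 of 69 mitochondrial ribosomal protein genes (10.1%) and at 2962 of 27025 genes of the whole table (11.0%). Where a gene had several listed starts, the one with the longest run was taken, for all genes alike. A listed start can lie some bases from the start used in brain, so a short run says only that these letters are not in this window.

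Ribosomal protein probe sets with 1 symbol were mostly lower in IP than in WB. Of the 106 probe sets, 12 rose and 59 fell at an adjusted p of 0.05, and 35 did not pass the test, which was limma on log2(intensity + 16) with Benjamini-Hochberg adjustment over all 45037 probe sets. Over all probe sets, 14.2% rose and 30.8% fell. The median log2 difference of the ribosomal proteins was -0.70, beside -0.23 for all probe sets. Of the 106, 42 passed with a fall of at least 2-fold and 3 with a rise of as much, where 21.9% and 7.72% of all probe sets did. On 37 probe sets every IP array lay below every WB array, and on 3 every IP array lay above, against 10.3% and 5.22% of all probe sets. With 52 lower and 12 higher of 95, the counts were alike without Rps19bp1 and the paralogues. In RNA from tissue, fewer cells of a type and less RNA per cell cannot be told apart.

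Ribosomal proteins are bright on these arrays, and 70 of the 106 probe sets lay above the 75th percentile of the mean over all arrays. Above that percentile as a whole, 33.9% of 11260 probe sets rose and 33.5% fell, with a median difference of -0.01. Of the 70 ribosomal protein probe sets there, 10 rose and 47 fell, with a median of -0.87. Among the other 36, 2 rose and 12 fell. For 11 probe sets the median intensities of IP and WB both lay under 145.6, the highest value of the dim trpn control transcripts, and 2 of those passed the test, both lower.

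The 2 subunits gave similar counts of falls. In the large subunit 3 probe sets rose, 27 fell and 18 did not pass, with a median of -0.70, and in the small subunit 9 rose, 32 fell and 17 did not pass, with a median of -0.68. All-array separation downward was seen on 19 large and 18 small subunit probe sets, and upward on 0 and 3. The values scattered more between IP arrays than between WB arrays, the median SD being 0.52 for IP and 0.23 for WB, as over all probe sets (0.74 for IP and 0.34 for WB).

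**Figure D1:**
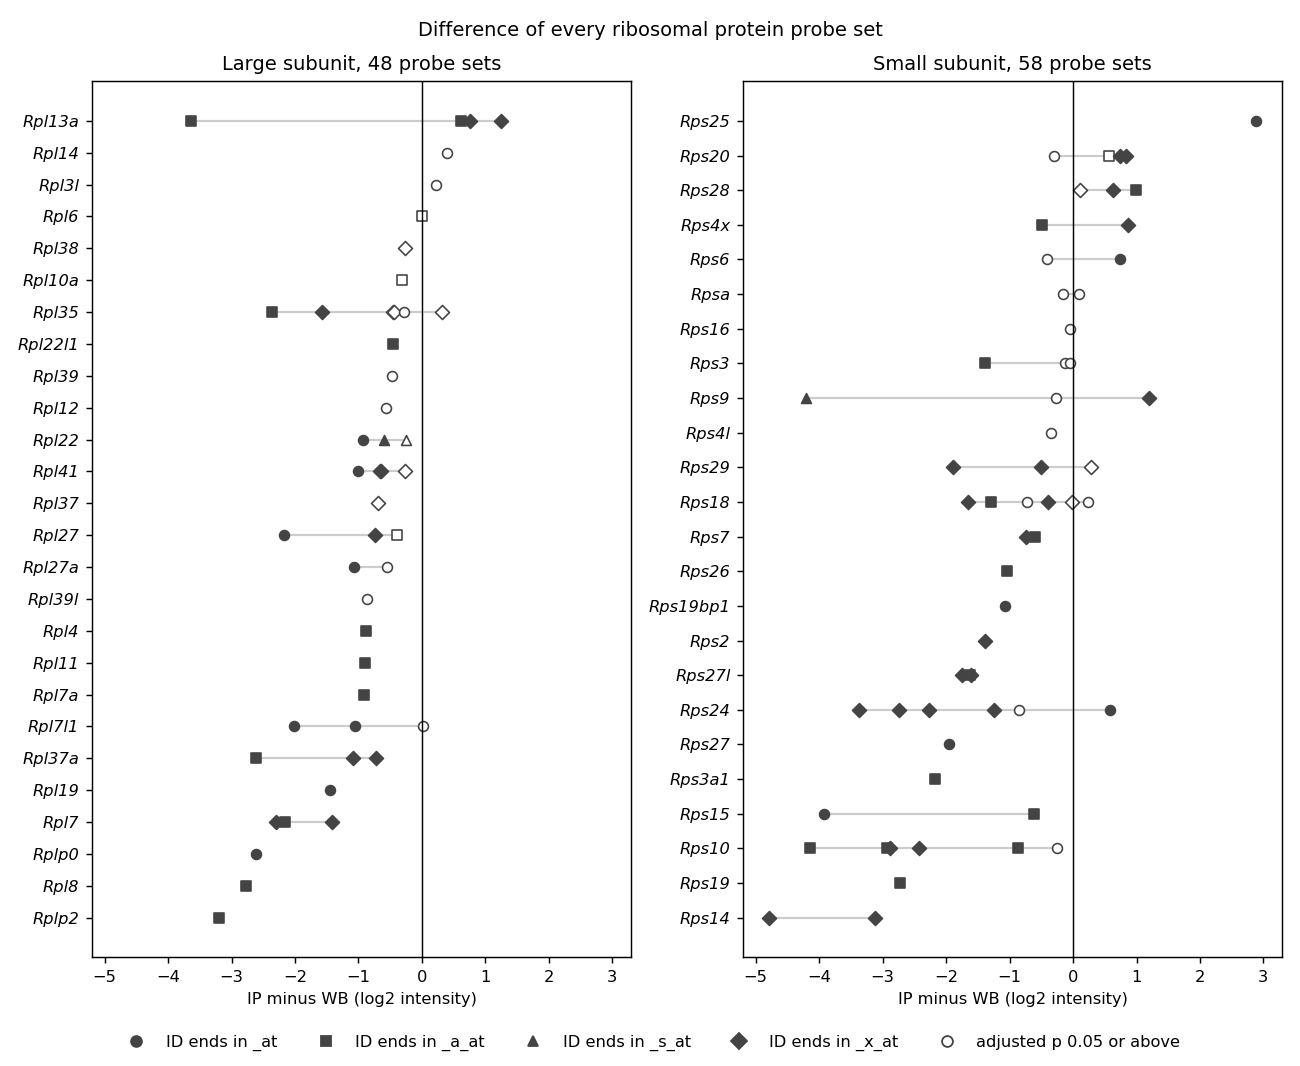
Log2 difference (IP minus WB) of each of the 106 ribosomal protein probe sets, by gene, with the large subunit on the left and the small subunit on the right. Filled symbols passed an adjusted p of 0.05, shapes give the ending of the probe set ID, and grey lines join the probe sets of a gene; most filled symbols lie left of 0, and Rpl13a, Rps9, Rps24 and Rps4x have filled symbols on both sides.

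Each array showed the shift. The median log2 intensity of the large subunit probe sets ranged from 9.67 to 10.19 over the 9 IP arrays and from 11.16 to 11.59 over the 9 WB arrays. For the small subunit it ranged from 9.10 to 9.67 in IP and from 10.26 to 11.01 in WB, so that the groups did not overlap in either subunit. The difference between the 2 subunit medians was 0.70 ± 0.26 in IP and 0.64 ± 0.17 in WB (SD, n = 9 each). Measured from the median of all probe sets of the same array, the large subunit stood 2.15 to 2.79 higher in IP and 3.05 to 3.68 higher in WB, again without overlap, and the small subunit 1.36 to 2.26 higher in IP and 2.12 to 3.13 higher in WB, with overlap. Together the 106 probe sets took 0.911 ± 0.121% of the summed intensity of an IP array and 1.30 ± 0.13% of that of a WB array.

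**Figure D2:**
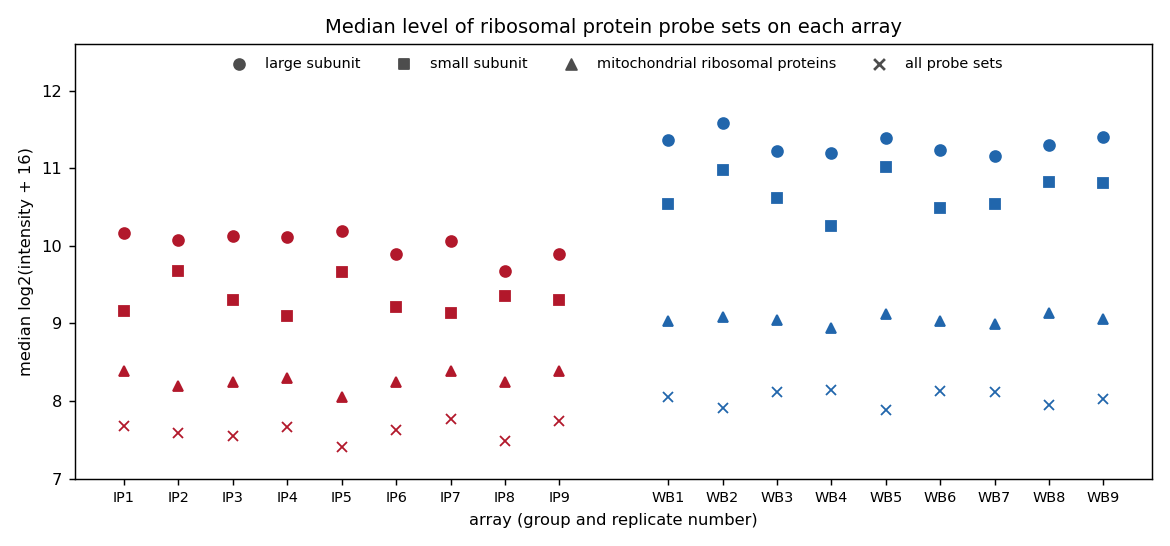
Median log2(intensity + 16) on each of the 9 IP and 9 WB arrays for large subunit, small subunit, mitochondrial ribosomal protein and all probe sets. The large subunit lies between 9.67 and 10.19 in IP and between 11.16 and 11.59 in WB, and the small subunit between 9.10 and 9.67 in IP and between 10.26 and 11.01 in WB.

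Signs of RNA quality and of other cells were read in both groups. The 3′ over 5′ log2 ratio of the Gapdh control probe sets was 4.13 ± 0.66 in IP and 1.56 ± 0.15 in WB (SD, n = 9 each), a difference of 2.58. Its exact two-sided permutation p was 4.11e-05, the smallest that 48620 divisions allow, and 8.23e-05 after adjustment over 2 ratios. That of Actb was -0.35 ± 0.44 in IP and -0.17 ± 0.08 in WB (exact permutation p = 0.249). The hybridization controls, bacterial RNA added in fixed amounts, averaged 13.7 to 15.3 in IP and 13.1 to 13.5 in WB (log2). Of 5 red blood cell probe sets 4 were lower and 0 higher in IP, their summed intensity being 313 to 1470.4 in IP and 5193 to 16573 in WB, and of 11 endothelial probe sets 7 were lower and 0 higher, with sums of 1857 to 3388 in IP and 3777 to 4549 in WB; none was at 0. Of 18 neuronal probe sets 6 were higher and 11 lower (sums of 124400 to 256484 in IP and 117267 to 164405 in WB), and of 22 oligodendrocyte probe sets 8 were higher and 10 lower (sums of 129780 to 250472 in IP and 98051 to 137534 in WB). Astrocyte markers had 8 higher and 17 lower of 32 probe sets (sums of 111363 to 182254 in IP and 88453 to 112772 in WB). Microglial markers had 3 and 6 of 13 (sums of 10553 to 18985 in IP and 7137 to 9492 in WB). Genes described in orexin neurons had 5 and 4 of 22 (sums of 40210 to 64751 in IP and 20466 to 23973 in WB). The part of RNA quality, of these cells and of the control level in the differences reported here was not tested.

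Among the large subunit's proteins, 2 of the 3 measured members of its stalk fell, each several-fold. Rplp2, one of the acidic stalk proteins that contact the elongation factors, had lowest, median and highest intensities of 156, 457 and 544 in IP, against 3082, 3536 and 4670.0 in WB, the order used for all intensities below, so that every IP array lay far below every WB array. Its log2 difference was -3.20 (SE 0.18, adjusted p = 1.06e-12), a 9.19-fold lower value on the log2(intensity + 16) scale. Rplp0, on which the stalk is built, had 104, 357 and 789.9 in IP, against 2049, 2347 and 2684 in WB, again without overlap, with a difference of -2.62 (SE 0.26, adjusted p = 1.41e-08). Rpl12, which binds at the stalk base, did not pass, at -0.57 (SE 0.32, adjusted p = 0.154). In the sequences above, Rplp2 has a run of pyrimidines at its start and Rplp0 a short one.

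Rpl13a, which in human cells is also released from the ribosome to silence inflammatory messages, gave the largest fall and the 3 rises of the large subunit. Its probe set 1417608_a_at read 29, 198 and 389 in IP, against 1786, 2037 and 3009 in WB, a difference of -3.63 (SE 0.29, adjusted p = 2.28e-10) without overlap. The other 3 probe sets of Rpl13a rose. Probe set 1455485_x_at read 18790.3, 27968 and 56279.8 in IP, against 9078, 12588 and 20473 in WB, a difference of 1.24 (SE 0.19, adjusted p = 9.88e-06) in which single arrays of the groups overlapped; quantile normalization left 0.10 (adjusted p = 0.483) and hybridization-control scaling 0.30 (adjusted p = 0.0619). The differences of 1455001_x_at and 1433928_a_at were 0.76 (SE 0.13, adjusted p = 4.51e-05) and 0.62 (SE 0.14, adjusted p = 0.000925), and they turned to -0.18 and -0.33 with scaling on the hybridization controls. With quantile normalization 1455001_x_at differed by 0.23 (adjusted p = 0.121). Probe sets of 1 gene lie at different places of its messages, and those ending in _x_at can also bind other transcripts, among them ribosomal protein pseudogenes.

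Rpl8, a protein close to the site where peptide bonds form, had intensities of 51.6, 298 and 1336 in IP, against 1803, 2084 and 2531 in WB and a difference of -2.76 (SE 0.35, adjusted p = 5.2e-07). Rpl37a, a zinc-binding protein of the large subunit, fell on all 3 of its probe sets, most on 1416217_a_at with 212, 422 and 795 in IP, against 1785, 2444 and 3061 in WB, a difference of -2.61 (SE 0.22, adjusted p = 4.85e-10). Both were below WB on every IP array. The fall of Rpl37a 1416218_x_at did not pass with quantile normalization (-0.39, adjusted p = 0.0565) or median centring (-0.30, adjusted p = 0.151). Rpl11, which with Rpl5 and 5S ribosomal RNA forms the particle that binds Mdm2 when ribosome assembly fails, was lower by less. It read 1658, 2231 and 3156 in IP, against 3719, 4228 and 5249.8 in WB, a difference of -0.89 (SE 0.13, adjusted p = 4.35e-06) without overlap. Around the polypeptide exit tunnel, 9 probe sets of Rpl4, Rpl19, Rpl35 and Rpl39, 6 of them of Rpl35, included 4 that fell (44.4%) and 0 that rose. Their median was -0.46, where 56.25% of the large subunit's probe sets fell, with a median of -0.70.

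Large subunit genes with 1 probe set either fell or did not pass. Of 17 such genes, 8 fell and 0 rose, where 56.25% of the large subunit's probe sets fell and 6.25% rose. Over all probe sets 30.8% fell and 14.2% rose. Rpl19 fell by 1.45, Rpl7a by 0.91 and Rpl4 by 0.87, each with every IP array below every WB array. Rpl6 had 3028, 4622 and 5318 in IP, against 3449, 4275 and 5760.5 in WB for lowest, median and highest intensity, and its difference of -0.0040 (SE 0.14, adjusted p = 0.985) had a 95% confidence interval from -0.29 to 0.28. The call of Rpl6 turned on the scaling, with -0.55 (adjusted p = 0.0008) after quantile normalization, -0.95 (adjusted p = 0.000853) when scaled on the hybridization controls and 0.42 (adjusted p = 0.0333) with median centring. Rpl14 varied widely between IP arrays, with an SD of 2.01 in IP and 0.33 in WB, and did not pass (adjusted p = 0.603); without IP replicate 6, its lowest array, the difference was 0.99 and passed. These 5 genes, and the further probe sets and genes described for their place in the ribosome (Rpl12, Rps2, Rps3 and Rps19), were picked after their values were seen.

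**Figure D3:**
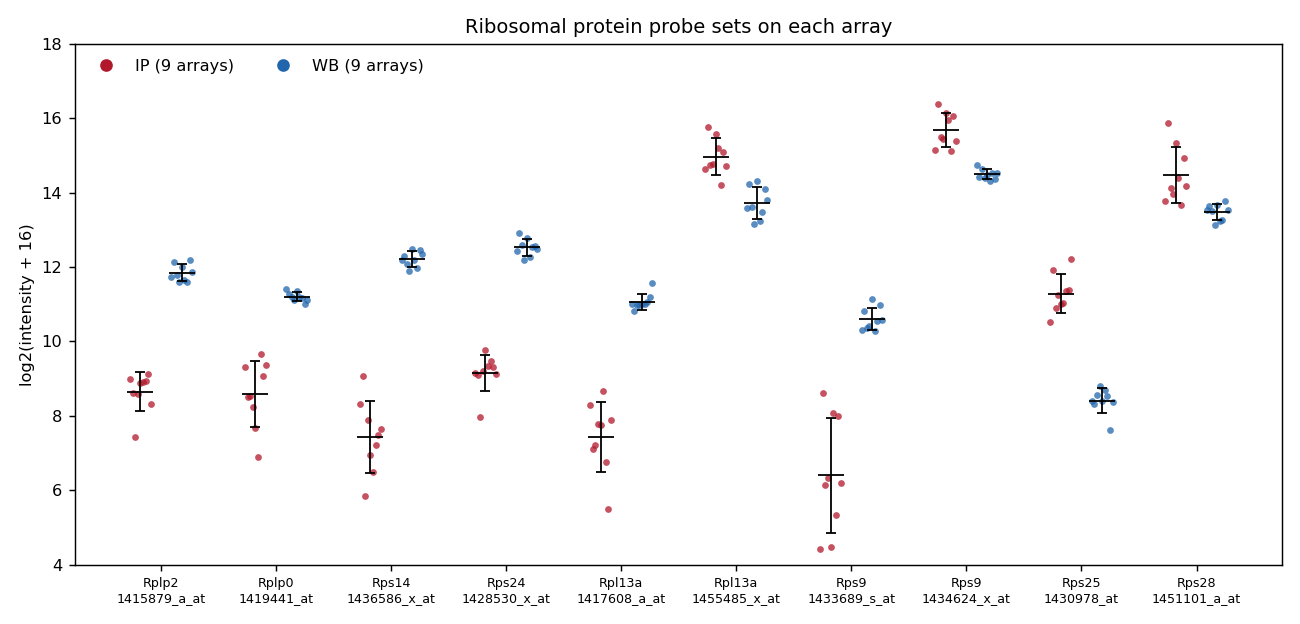
Log2(intensity + 16) of 10 ribosomal protein probe sets on each of the 9 IP arrays (red, left of each pair) and 9 WB arrays (blue, right); bars give the mean and SD. Rplp2, Rplp0, the probe sets of Rps14 and Rps24, Rpl13a 1417608_a_at and Rps9 1433689_s_at lie lower in IP on every array, and Rps25 and Rps9 1434624_x_at lie higher on every array.

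Of 6 listed small subunit genes around the path of the message and the decoding site, 4 were measured. Of 8 probe sets of Rps2, Rps3, Rps14 and Rps15, 6 fell (75.0%) and 0 rose, with a median of -1.39. Of all the small subunit's probe sets 55.2% fell and 15.5% rose, with a median of -0.68. Over all probe sets 30.8% fell and 14.2% rose. Rps14, whose loss of 1 copy marks a human anaemia with deletion of part of a chromosome, had the largest fall of all ribosomal protein probe sets. Its 1436586_x_at read 41.1, 161 and 520.0 in IP, against 3775, 4696 and 5747 in WB, a difference of -4.79 (SE 0.29, adjusted p = 2.14e-12), and its other probe set 1437706_x_at differed by -3.12 (SE 0.20, adjusted p = 9.48e-12). No IP array reached the lowest WB array on either. Rps15, at the head of the small subunit, read 15.6, 36.6 and 177 in IP, against 823, 1127 and 1177 in WB on 1416089_at, a difference of -3.93 (SE 0.32, adjusted p = 4.03e-10), while its brighter probe set 1416088_a_at differed by -0.62 (SE 0.11, adjusted p = 8.63e-05), which became -1.21 with quantile normalization and -0.20 (adjusted p = 0.199) with median centring. Rps2, at the message entry site, fell by 1.39 (adjusted p = 4.62e-07). Rps3, which sits there too and also acts in DNA repair, fell by 1.39 on 1435151_a_at (adjusted p = 5.2e-09), and its other 2 probe sets did not pass.

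Mutations in a group of ribosomal protein genes cause Diamond-Blackfan anaemia in people, and 11 of 18 such genes were measured, by 33 probe sets. Of these 21 fell (63.6%), 3 rose (9.09%) and 9 did not pass, with a median of -0.86. Of all 106 ribosomal protein probe sets 55.7% fell and 11.3% rose, with a median of -0.70. Over all probe sets 30.8% fell and 14.2% rose. Rps19, the gene most often affected, read 81.1, 174 and 279 in IP, against 914, 1319.8 and 1858 in WB, a difference of -2.72 (SE 0.20, adjusted p = 6.82e-11) without overlap. Rps10, a protein of the small subunit head, had 3.38, 204 and 632 in IP, against 2585, 3056 and 3744 in WB on 1438723_a_at, a difference of -4.15 (SE 0.42, adjusted p = 1.33e-08). It fell on 5 of its 6 probe sets, the other being dim in both groups, although 1434854_a_at did not pass with median centring (-0.44, adjusted p = 0.265). Rps24, needed to process the small subunit's RNA, fell most on 1428530_x_at with 235, 569 and 855 in IP, against 4642, 5928 and 7653 in WB, a difference of -3.37 (SE 0.17, adjusted p = 1.93e-13). Its 3 further _x_at probe sets fell by 1.25 to 2.74, all without overlap. In contrast Rps24 1455195_at rose, at 188, 404 and 783 in IP, against 201, 247 and 343 in WB, a difference of 0.59 (SE 0.22, adjusted p = 0.0344), and this call was lost in 8 of the 18 fits that left out 1 array, IP replicates 3, 8 and 9 and WB replicates 2, 4, 5, 8 and 9, with differences of 0.47 to 0.72 over all 18. With scaling on the hybridization controls it was -0.35.

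Rps25, which certain viral messages need to start translation without a cap, stood apart with the largest rise. Its only probe set read 1463, 2426 and 4727 in IP, against 182, 320.0 and 432 in WB, a difference of 2.88 (SE 0.20, adjusted p = 2.35e-11) or 7.34-fold, and every IP array lay far above every WB array. In WB this probe set was dimmer than most of the family, and with 1 probe set the gene has no other value to set beside it. Rps9, a protein that guards the accuracy of decoding, split widest within a gene. Probe set 1434624_x_at was the brightest of the family and read 35431, 46266 and 85105 in IP, against 20515, 22724 and 27494 in WB, a difference of 1.19 (SE 0.15, adjusted p = 5.87e-07) without overlap. On 1433689_s_at the same gene had 5.33, 57.7 and 378 in IP, against 1231, 1487 and 2244 in WB, a difference of -4.21 (SE 0.45, adjusted p = 3.82e-08), also without overlap, and 1426958_at was dim and did not pass. The gap between the outer 2 was 5.40 on the log2 scale.

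The remaining rises of the small subunit were smaller. Rps28, at the exit of the message path, read 13100.5, 18605 and 59769 in IP, against 8993, 11805 and 14151 in WB on 1451101_a_at, a difference of 1.00 (SE 0.23, adjusted p = 0.000767), and 1454778_x_at differed by 0.62 (SE 0.16, adjusted p = 0.0023), with overlap on both. After quantile normalization they were -0.19 (adjusted p = 0.245) and -0.37 (adjusted p = 0.00408), while hybridization-control scaling gave 0.055 (adjusted p = 0.718) and -0.32 (adjusted p = 0.044). Thus 1454778_x_at passed as lower under both. The other Rps28 probe set, 1423763_x_at, did not pass as deposited (0.11, adjusted p = 0.604). It passed as lower under both of these scalings, at -0.81 and -0.83, and as higher with median centring, at 0.53. Rps20 1456436_x_at had 9658, 14573 and 21721 in IP, against 6073, 8376 and 9387 in WB, a difference of 0.84 (SE 0.14, adjusted p = 3.94e-05) without overlap, and 1456373_x_at differed by 0.74 (SE 0.13, adjusted p = 5.6e-05). After quantile normalization the differences of the 2 were -0.16 (adjusted p = 0.142) and -0.31 (adjusted p = 0.0447, past the test as lower). After scaling on the hybridization controls they were -0.11 and -0.20. Rps20 1450417_a_at did not pass as deposited (0.57, adjusted p = 0.0926). It passed as higher with quantile normalization (0.82, adjusted p = 0.00846) and with median centring (0.99, adjusted p = 0.00372). When scaled on the hybridization controls it was -0.37 (adjusted p = 0.279). Rps4x, encoded on the X chromosome, rose on 1420303_x_at by 0.87 (SE 0.18, adjusted p = 0.00039) and was lower on the brighter 1416276_a_at, at -0.49 (SE 0.15, adjusted p = 0.0112), and the difference of the probe set that rose was -0.076 with scaling on the hybridization controls. The lower one was -0.069 (adjusted p = 0.774) with median centring. Rps6, the substrate of the S6 kinases and a common readout of mTOR activity as a protein, had 633, 887 and 3861 in IP, against 513, 608 and 853 in WB on 1416142_at, a difference of 0.74 (SE 0.24, adjusted p = 0.0147), with IP replicate 6 far above the others, and turned to -0.21 with scaling on the hybridization controls. Its other probe set was dim, at -0.41 (SE 0.45, adjusted p = 0.494). Rpsa, also known as a laminin receptor, did not pass on either probe set, with -0.15 (SE 0.16, adjusted p = 0.473) for the brighter and 0.09 (SE 0.21, adjusted p = 0.759) for the other, and 95% confidence intervals from -0.48 to 0.18 and from -0.35 to 0.53. The brighter one passed as lower after quantile normalization (-0.91, adjusted p = 4.47e-06) and when scaled on the hybridization controls (-1.09, adjusted p = 1.4e-05), and was 0.27 (adjusted p = 0.257) with median centring.

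The paralogues were measured by 10 probe sets, of which 6 fell and 0 rose, with a median of -0.96. All 3 probe sets of Rps27l, a relative of Rps27 that p53 induces, fell by 1.60 to 1.75, with IP arrays from 26.9 to 1284 and WB arrays from 658 to 1025 on the brightest. On that probe set only IP replicate 3, at 1284, lay above every WB array, and the next highest, IP replicate 2, read 686. The median was 283 in IP, against 789 in WB. Rpl22l1, the relative of Rpl22, differed by -0.46 (SE 0.12, adjusted p = 0.00264), and by -0.035 (adjusted p = 0.861) with median centring. Rpl7l1 fell on 2 of 3 probe sets, the larger difference being -2.02 (SE 0.36, adjusted p = 6.32e-05), and its 1439780_at (adjusted p = 0.0253) lost its call without WB replicate 1, 2 or 4, at differences no nearer to 0 than -0.95, and was -0.51 (adjusted p = 0.285) with quantile normalization and -0.64 (adjusted p = 0.181) with median centring. Rpl3l, a form of striated muscle, had 0.23 (SE 0.41, adjusted p = 0.68), Rpl39l, a form of the testis, -0.87 (SE 0.41, adjusted p = 0.0873), and Rps4l -0.34 (SE 0.19, adjusted p = 0.148). None of these 3 passed the test.

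Probe sets of the same gene often gave different answers. Of the 24 genes with several probe sets, 6 fell on all of them (Rpl37a, Rpl7, Rps14, Rps15, Rps27l and Rps7) and 0 rose on all. A further 10 had falls beside probe sets that did not pass, 3 had rises beside such probe sets (Rps20, Rps28 and Rps6), and Rpsa had none past the test. In 4 genes, Rpl13a, Rps9, Rps24 and Rps4x, probe sets passed in opposite directions. Under all 4 scalings of the arrays described below, 3 genes fell on all their probe sets (Rpl7, Rps14 and Rps27l) and opposite calls were found in 1, Rps9. The gap between the highest and lowest difference of a gene had a median of 1.52, was over 1 in 16 genes and over 2 in 8. The probe set brightest in WB had the highest difference in 11 of the 24 genes and the lowest in 4. Of the 26 genes with 1 probe set, 14 fell and Rps25 rose.

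The 4 genes with the most probe sets, 6 each, show the pattern in detail; they were added by that number after the data were seen. In Rpl35, by the exit tunnel, the differences were -2.37, -1.57, -0.45, -0.44, -0.28 and 0.32, and the first 2 passed. The next 2 passed as lower after quantile normalization, at -1.30 and -1.20, and when scaled on the hybridization controls, at -1.39 and -1.38. The last passed as higher with median centring, at 0.75. It passed as lower after quantile normalization (-0.62, adjusted p = 0.000355) and when scaled on the hybridization controls (-0.62, adjusted p = 0.00401). The difference of -0.45, on 1455950_x_at, also passed with the replicate block (adjusted p = 0.0493) and with the filter on dim probe sets (adjusted p = 0.0459), and in 5 of the fits that left out 1 array (IP replicates 1, 3 and 4 and WB replicates 4 and 6), and that of -0.44 in 2 (IP replicates 1 and 3). The probe set with -2.37 read 449.7, 731 and 1249.5 in IP, against 3273, 3788 and 4370.1 in WB, and the one with 0.32 read 6119, 10839.8 and 13561 in IP, against 6109, 8343 and 9386 in WB. In Rps18, which touches the transfer RNAs at the head of the small subunit, they were -1.65, -1.30, -0.73, -0.40, -0.02 and 0.24, with 3 passing as lower, although the probe set with -0.40 turned to 0.027 with median centring and lost its call without IP replicate 6 or 9 (differences of -0.49 to -0.34 over the fits that left out 1 array). That probe set also did not pass with no intensity trend (adjusted p = 0.0667) or with 4 IP arrays left out together (-0.34, adjusted p = 0.0813). In Rps10 they were -4.15, -2.93, -2.89, -2.43, -0.86 and -0.25. In Rps24 they were -3.37, -2.74, -2.27, -1.25, -0.84 and 0.59.

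The class of a probe set, given by the ending of its ID, goes with sequence sharing, as _a_at marks transcripts of 1 gene and _s_at and _x_at mark sequence that other transcripts hold too. Of 28 ribosomal protein probe sets ending in _a_at, 2 rose and 22 fell (median -0.97), where all 4426 of that class had 720 higher and 1771 lower (median -0.39). Of 40 ending in _x_at, 7 rose and 24 fell (median -0.70), where all 2441 of that class had 1001 higher and 368 lower (median 0.42). Of 35 with the plain ending _at, 3 rose and 11 fell (median -0.41), beside 4171 higher and 11115 lower of 36082 (median -0.26). Thus the _x_at class leaned upward on the arrays as a whole and downward among the ribosomal proteins.

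The counts also varied with the level on the WB arrays. With a WB mean from 11 up to 13 (log2), 2 of 46 ribosomal protein probe sets rose and 37 fell, with a median of -1.0, while of all 2531 probe sets at that level 934 rose and 1099 fell (median -0.15). At a WB mean of 13 or more, 5 of 11 rose and 3 fell, with a median of 0.28, beside 223 higher and 84 lower of 353 (median 0.69). From 8 up to 11, 5 of 30 rose and 15 fell (16.7% and 50.0%, median -0.61), near the 15.8% and 45.1% of all 19549 (median -0.49). Below 8, 0 of 19 rose and 4 fell (21.1%, median -0.34), beside 9.55% and 17.1% of all 22604 (median -0.07). These levels were chosen after the data were seen, and the WB mean enters both the grouping and the difference.

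**Figure D4:**
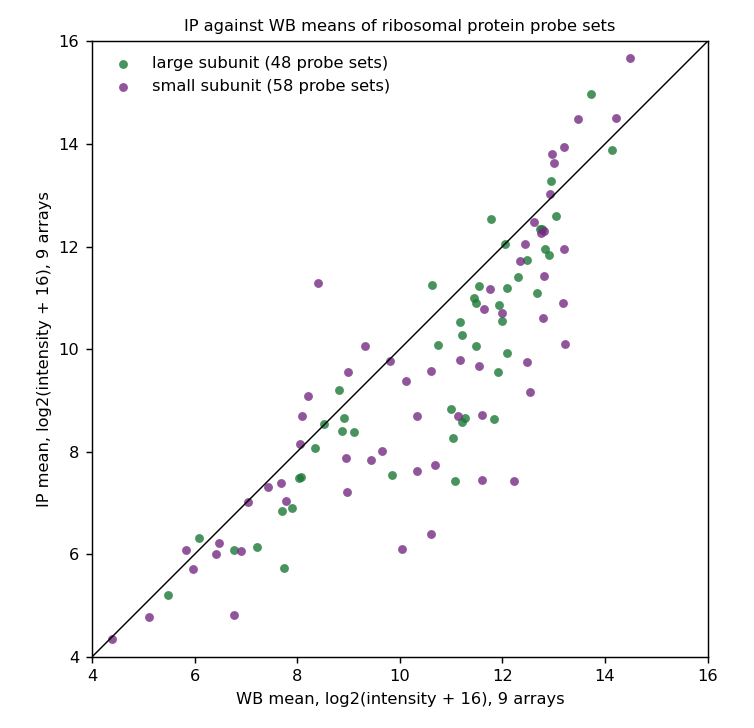
Mean log2(intensity + 16) over 9 IP arrays (vertical) against that over 9 WB arrays (horizontal) for 48 large and 58 small subunit probe sets, with the line of equal values. At a WB mean from 11 up to 13 most points lie below the line, at 13 or more 5 of 11 probe sets rose, and the small subunit point far above the line is Rps25.

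The probe sets were also counted by the pyrimidine run at the start of their gene. Of 47 probe sets whose gene has a run of at least 8, 6 rose and 27 fell, with a median of -0.87. Of 45 with a shorter run, 4 rose and 24 fell, with a median of -0.62, and of 14 with no start listed, 2 rose and 8 fell, with a median of -0.96. Among the sequences above, Rplp2, Rpl13a, Rps10, Rps24 and Rps9 hold a long run and gave large falls, and so did Rps15, Rplp0 and Rpl37a, which do not. Rises came from genes with a long run too, among them Rpl13a, Rps9, Rps24 and Rps6. The largest rise, of Rps25, was on a gene with 4 pyrimidines there. No test was made of these differences.

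The probe sets that also carry other symbols were counted apart. Of the 110 with several symbols, 25 rose (22.7%) and 49 fell (44.5%), against 14.2% and 30.8% of all probe sets. Their median was -0.24, near the -0.23 of all probe sets, where the 106 with 1 symbol had -0.70. All IP arrays lay below all WB arrays on 37 and above on 11, against 10.3% and 5.22% of all probe sets. Fau, a small subunit protein made as a fusion with a ubiquitin-like protein and outside the name rule, read 742, 1146 and 2815 in IP, against 2108, 2526 and 3192 in WB, a difference of -1.02 (SE 0.20, adjusted p = 0.000172).

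Other genes of the same pathway moved in both directions. Among 45 probe sets of 18 other messages known for a terminal oligopyrimidine start, 13 rose and 22 fell (28.9% and 48.9%), with a median of -0.41. Btf3, a factor that binds nascent chains at the ribosome, had 13814, 17694 and 19995 in IP, against 3321, 4723 and 5213 in WB, a difference of 1.94 (SE 0.11, adjusted p = 1.06e-12), and Eef1d, a subunit of the elongation factor exchange complex, differed by 1.92 (SE 0.14, adjusted p = 4.65e-11). Eif4b, a helper of the initiation helicase, fell by 2.12 (adjusted p = 7.36e-05), and Nap1l1, a histone chaperone, by 2.09 (adjusted p = 4.47e-10). Among 41 probe sets of 14 regulators of these messages, 5 rose and 18 fell (12.2% and 43.9%), with a median of -0.50. Eif4e, which binds the cap, rose by 1.14 (adjusted p = 1.14e-07), and Tsc1 by 0.66 (adjusted p = 0.0149), although with scaling on the hybridization controls Eif4e differed by 0.20 (adjusted p = 0.429) and Tsc1 by -0.28. Tsc2, the partner of Tsc1 in restraining mTOR, fell by 2.39 (adjusted p = 2.17e-05) and Tia1, an RNA-binding protein of stress granules, fell by 2.34 (adjusted p = 6.13e-06).

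Of 79 probe sets from 39 genes of ribosome assembly, 12 rose and 26 fell (15.2% and 32.9%), near the 14.2% and 30.8% of all probe sets, with a median of -0.35. Dkc1, the pseudouridine synthase of the nucleolus, read 3626, 8812 and 12585 in IP, against 546, 849 and 1019 in WB, a difference of 3.29 (SE 0.20, adjusted p = 1.88e-12), and Gnl2, a nucleolar GTPase, differed by 2.84 (SE 0.17, adjusted p = 1.59e-12). Nhp2, a partner of Dkc1 in the same particle, read 3.6, 153 and 409 in IP, against 1177, 1308 and 1609 in WB, a difference of -3.34 (SE 0.44, adjusted p = 8.62e-07), and Fbl, the methyltransferase fibrillarin, fell by 2.98 (adjusted p = 5.34e-07). The groups did not overlap on either the Dkc1 or the Nhp2 probe set, and both IDs end in _s_at. The 2 were named as the largest rise and the largest fall of this list, so their opposite directions follow from that choice.

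The mitochondrial ribosome, whose proteins are encoded by other nuclear genes, had 20 higher and 75 lower of 156 probe sets from 76 genes (12.8% and 48.1%), with a median of -0.51. Its large and small subunits had medians of -0.53 and -0.49. Mrpl44 rose on 2 probe sets, by 3.21 on 1452144_a_at with 9091, 11583 and 17598 in IP, against 1123, 1291 and 1609 in WB (adjusted p = 7.41e-15), and by 2.78 on 1437391_x_at (adjusted p = 4.7e-14). Mrps23 fell by 3.07 (adjusted p = 4.7e-09) and Mrpl19 fell by 2.87 (adjusted p = 7.94e-08). The cytosolic medians of -0.70 and -0.68 and the mitochondrial one were not tested against each other.

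The counts of rises and falls depended on how the arrays were scaled. The median difference of all probe sets was -0.23 as deposited, 0.11 after quantile normalization, 0.20 after median centring and -1.17 when scaled on the hybridization controls. The large subunit's median lay 0.48 below that of all probe sets in the deposited values and 1.06 below it after quantile normalization, and the small subunit's 0.45 and 1.05 below. Median centring and control scaling move all probe sets of an array alike and so cannot alter this gap. Rises made up 10.0% of large subunit calls as deposited, 3.12% with quantile normalization, 20.8% after median centring and 0% when scaled on the hybridization controls. For the small subunit the shares were 22.0%, 14.3%, 35.1% and 4.0%, and for all probe sets 31.6%, 52.3%, 60.6% and 4.04%. With median centring 19 of the 27 large subunit falls and 24 of the 32 small subunit falls still passed. Under all 4 scalings 19 large subunit and 24 small subunit probe sets passed as lower, and of the rises only Rps25 and Rps9 1434624_x_at passed as higher in all 4.

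**Figure D5:**
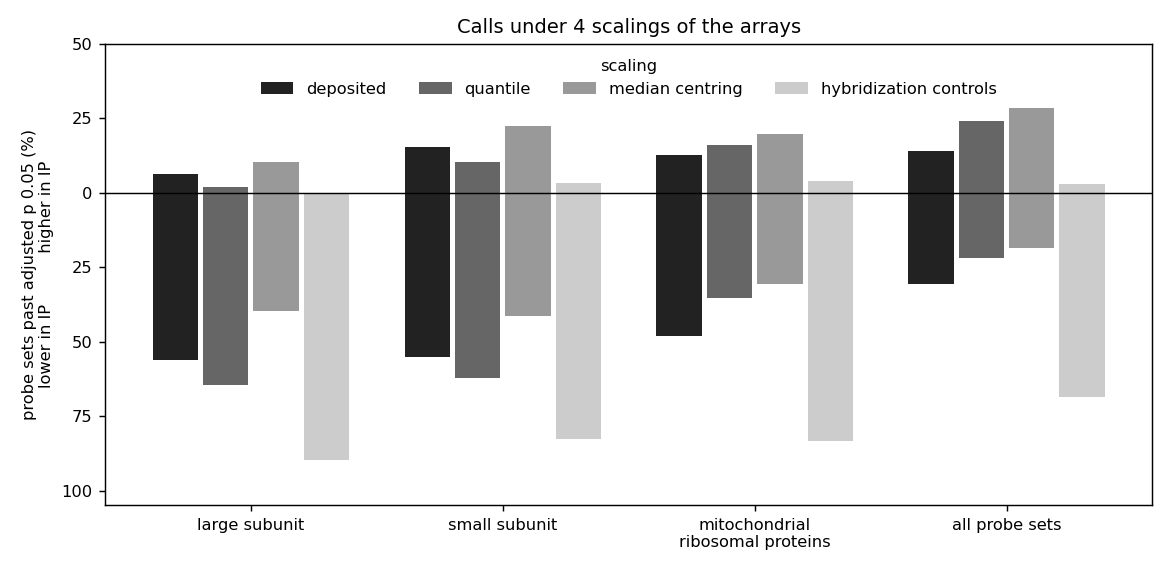
Percent of probe sets past an adjusted p of 0.05 that were higher (up) or lower (down) in IP, for the large subunit, the small subunit, mitochondrial ribosomal proteins and all probe sets, under 4 scalings of the arrays. Falls outnumber rises in both cytosolic subunits under each of the 4 scalings, while over all probe sets rises make up 31.6% of calls as deposited, 52.3% with quantile normalization, 60.6% after median centring and 4.04% when scaled on the hybridization controls.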

How the data were processed

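RNA of 9 IP and 9 WB samples was hybridised to mouse expression arrays after amplification from 5 ng with the NuGEN WT-Ovation Pico system, per the labels' protocols. Each deposited value is a linear intensity from MAS5, per the submitters' processing notes, with no version named. Every array had been scaled, its mean being close to 500 once 2% of values was trimmed at each end. Groups come from the labels, and symbols from the array annotation, with 106 of 106 ribosomal protein probe sets matched to RefSeq genes and 0 renamed.

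Here 16 was added, the log2 taken, and 45037 probe sets were fitted in R 4.3.3 with limma 3.58.1 and statmod 1.5.0, using an intensity trend, IP minus WB, and Benjamini-Hochberg adjustment. Adding 16 understates the change of dim probe sets. No filter was applied, and the 64 array controls were left out. The procedure was tested on simulated data. RNA quality ratios were compared by exact permutation. The number of arrays limits the precision. Ribosomal protein genes and gene lists were chosen with earlier results of these data known. Named were the 5 largest rises and falls per subunit past the test, Rplp0, Rplp2, Rpsa, Rps6 and Rpl11, genes with opposite calls, the paralogues, and up to 2 rises and 2 falls of each list; exceptions, chosen after their values were seen, are stated or are further probe sets of the named genes. Probe sets above the 75th percentile as a background, the levels on WB arrays and the setting without 4 IP arrays were chosen after the data were seen. Alternatives were a pseudocount of 1 or 64, normalization by quantiles, median centring, scaling on the hybridization controls, a filter on dim probe sets, no intensity trend, array weights, a replicate block and leaving out each array. Sequences are from RefSeq, GRCm38.p6.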

Additional observations from a re-analysis of the deposited data

Results flagged for a closer look

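In 14 of the 188 groups of 9 arrays examined for the probe sets named, 1 array lay far from the other 8, where chance flags about 1 in 20 groups. Of these, 10 were IP arrays and 4 WB arrays. IP replicate 3 was the lowest of 9 for Rps24 1428530_x_at, at 7.97 (log2 intensity) with the nearest array at 9.11, and for Rplp2, at 7.42 with the nearest at 8.32. IP replicate 6 was the highest for Rps6 1416142_at, at 11.92 with the nearest at 10.23, and for Rps20 1450417_a_at, at 11.68 against 9.64, and the lowest for Rpl14, at 4.43 against 8.19. IP replicate 1 was the lowest for Rps19, at 6.60 against 7.39, and the highest for Rpl35 1454833_at, at 7.47 against 5.49. IP replicate 5 was the lowest for Rps18 1450390_x_at, at 4.79 against 6.88, and IP replicate 7 for Rps20 1456373_x_at, at 13.09 against 13.82. IP replicate 4 was the highest for Mrps23, at 6.82 against 5.37. Among WB arrays, replicate 8 was the lowest for Rps25, at 7.63 against 8.32, and replicate 9 the highest for Rpl13a 1417608_a_at, at 11.56 against 11.19. WB replicate 3 was the lowest for Eif4e, at 10.42 against 10.74, and the highest for Nhp2, at 10.67 against 10.44. Of these probe sets, those past the threshold kept their calls when each array was left out in turn. Rpl14 gained a call without IP replicate 6 and Rps20 1450417_a_at without IP replicate 5, with differences of 0.30 to 0.71 for the second over the 18 fits.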

How the results depend on the processing

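Pseudocounts of 1 and 64, the filter on dim probe sets, no intensity trend, array weights and leaving out 4 IP arrays together (replicates 2, 5, 6 and 8, with the highest hybridization controls, chosen after seeing the data) kept each subunit's counts within 1.5 times. Leaving out each array in turn gave 3 to 4 rises and 26 to 30 falls in the large subunit, 8 to 10 and 31 to 34 in the small subunit, and 5921 to 6507 and 13057 to 14031 over all probe sets. Quantile normalization, median centring and scaling on the hybridization controls gave 1, 5 and 0 large subunit rises, and the last gave 43 large subunit falls and 2 small subunit rises. Over all probe sets those 3 gave 10852, 12802 and 1297 rises, median centring and control scaling gave 8322 and 30824 falls, and the filter, which tests fewer probe sets, gave 8479 falls. Whether IP and WB samples of the same replicate number share an animal is not given in the labels. Same-numbered IP and WB deviations correlated at -0.05 to 0.08 over 9 pairs, and 2 of 9 samples correlated best with their own number. Low correlations cannot show that the samples are unpaired. With the replicate block 3 large subunit probe sets rose and 28 fell, 9 and 33 did so in the small subunit, and 6313 and 13707 over all. Of the small subunit rises, 2 became falls past the threshold under quantile normalization and 1 under control scaling. Mitochondrial ribosomal proteins had 31 rises and 48 falls with median centring and 6 and 130 with control scaling, and assembly factors 19 and 15, and 2 and 61. The other messages with a terminal oligopyrimidine start had 10 falls with median centring and 3 rises with control scaling, and their regulators 3 rises with quantile normalization and 0 rises and 37 falls with control scaling. Rps24 1436500_at (-0.84) passed with the replicate block. The cause of these changes was not tested. The following differences changed sign. With quantile normalization they were 0.17 for Rps10 1436384_at, 0.45 for Rps18 1450390_x_at, 0.13, -0.31 and -0.16 for Rps20 1421935_at, 1456373_x_at and 1456436_x_at, -0.81, -0.37 and -0.19 for Rps28 1423763_x_at, 1454778_x_at and 1451101_a_at, 0.34 and 0.13 for Rps3 1447563_at and 1455600_at, 0.047 for Rps6 1453466_at, 0.25 for Rps9 1426958_at and -0.62 for Rpl35 1436840_x_at. With median centring they were 0.18 for Rps10 1436384_at, 0.027 and 0.40 for Rps18 1455572_x_at and 1450390_x_at, 0.13 for Rps20 1421935_at, 0.30 and 0.38 for the same Rps3 probe sets, 0.080 for Rps4l, 0.017 for Rps6 1453466_at, 0.16 for Rps9 1426958_at, 0.27 for Rpsa 1448245_at, 0.15 for Rpl35 1454833_at and 0.42 for Rpl6. With scaling on the hybridization controls they were -0.70 for Rps18 1421838_at, -0.37, -0.20 and -0.11 for Rps20 1450417_a_at, 1456373_x_at and 1456436_x_at, -0.35 for Rps24 1455195_at, -0.83 and -0.32 for Rps28 1423763_x_at and 1454778_x_at, -0.076 for Rps4x 1420303_x_at, -0.21 for Rps6 1416142_at, -0.85 for Rpsa 1416196_at, -0.33 and -0.18 for Rpl13a 1433928_a_at and 1455001_x_at, -0.55 for Rpl14, -0.62 for Rpl35 1436840_x_at, -0.71 for Rpl3l, -0.93 for Rpl7l1 1452049_at and -0.28 for Tsc1. Without the 4 IP arrays they were 0.30 for Rps18 1450390_x_at, 0.22 for Rps20 1421935_at, -0.18 for Rps28 1423763_x_at, 0.0086 for Rps3 1455600_at, 0.12 for Rps9 1426958_at, -0.063 for Rpsa 1416196_at, 0.028 for Rpl35 1454833_at and 0.14 for Rpl6. Pseudocount 64 gave 0.0024 for Rps18 1450390_x_at and array weights 0.10 for Rpl6. Leaving out single arrays gave up to 0.25 for Rps18 1450390_x_at, 0.034 for Rps20 1421935_at, 0.079 for Rps3 1455600_at and 0.057 for Rpl6, and down to -0.11 for Rpl7l1 1452049_at.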
